A study of Mus musculus with 18 samples.

Results

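The genes described here are 39 genes of macroautophagy, from the kinase complex that starts it to the receptors that bring cargo to it. They were chosen by their symbols, and all 39 were found in an expression table of 34896 genes. All 39 also passed the filter for testing, at least 1 TPM (transcripts scaled to a fixed total per library, a level per length of transcript) in at least 3 libraries, which 13061 genes passed. The study followed neutrophil differentiation in the bone marrow of adult C57BL/6 mice of 6 to 12 weeks and asked where the chromatin remodeller CHD4 sits in the presence and absence of the transcriptional repressor GFI1. RNA-seq covered granulocyte-monocyte progenitors (GMP), preneutrophils (preNeu) and mature neutrophils (matNeu) of WT mice, with 3 libraries each. ChIP-seq peak lists covered CHD4 in WT GMP and in Gfi1-/- GMP, and the promoter and enhancer mark H3K4me2 in WT GMP, preNeu and matNeu. Accessible chromatin of WT preNeu and matNeu was measured by ATAC-seq. Each ChIP-seq and ATAC-seq group was 1 library, so that no difference between peak lists has a replicate check.

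GMPs had been sorted as lineage-negative cKIT+ SCA- cells that carried CD16/32 and CD34. The preNeu gate took Mac-1+ Gr-1+ cells with much cKIT and intermediate CXCR4, and the matNeu gate took CXCR2+ cells without SiglecF. For the RNA-seq of GMPs, marrow of the tibiae, femora and humeri was pooled before sorting, and pooling is not described for the other preparations. The labels did not say whether the 3 libraries of a stage came from separate animals, so the p-values below measure only the spread between these libraries.

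Autophagy encloses cytoplasm, damaged mitochondria or protein aggregates in a double membrane and delivers them to the lysosome. The ULK kinase complex starts the process, a class III phosphatidylinositol 3-kinase complex marks the membrane, ATG9, ATG2 and WIPI proteins extend it, and a pair of conjugation systems couples the small ubiquitin-like proteins of the ATG8 family to its lipids. Receptors then bind cargo on one side and ATG8 proteins on the other. In neutrophils autophagy is known for its part in differentiation, in which the cells turn to oxidation of lipids released by it, and in the handling of granules and microbes.

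The libraries of each stage resembled one another (Pearson correlation of log2(TPM + 1) across genes of at least 0.960 within a stage and at most 0.809 between stages). The markers followed the titles of the samples: Cd34 had a mean of 469.9 TPM in GMP and about 2 TPM in the later stages, Ngp, a granule gene of preneutrophils, had 71395 TPM in preNeu, and Cxcr2 had 3468 TPM in matNeu. A second label of cell type went against the title for 13 of the 18 samples of the series, and the titles were followed. The composition of the libraries differed by stage, since the 10 most abundant genes took 9.15 to 9.78% of all TPM in GMP, 24.1 to 28.3% in preNeu and 12.7 to 15.9% in matNeu. Genes of mitochondrial DNA took 3.67 to 4.55%, 1.58 to 1.80% and 0.181 to 0.204%. Among markers of other cells, the summed TPM of 8 monocyte and macrophage genes was 3997 to 4816 in GMP, 1718 to 2244 in preNeu and 1138 to 1504 in matNeu, and that of 6 B cell genes 78.9 to 94.5, 26.5 to 47.2 and 62.9 to 137. For 6 eosinophil genes it was 861 to 1126, 39.6 to 50.7 and 35.9 to 54.1. For 6 T and NK cell genes it was 462 to 615, 221 to 254 and 10.6 to 16.9. For 5 basophil and mast cell genes it was 524 to 709, 310 to 492 and 1.73 to 12.6. Sums of erythroid and of platelet genes reached at most 39.3 and 51.2 in any library. Their part in the results below was not tested, and in these bulk samples a change in the mix of cells and a change of RNA per cell cannot be told apart.

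In sum, the autophagy genes were expressed most in mature neutrophils. Their summed level was 2651 to 2696 TPM in the GMP libraries, 2726 to 2823 TPM in preNeu and 6035 to 6197 TPM in matNeu, so the matNeu libraries stood apart from all others and the GMP and preNeu ranges lay close together. A sum weighs abundant genes most, and not every part of the group rose. From GMP to matNeu the ATG8 family went from 412 to 484 up to 2141 to 2245 TPM. The class III PI3K genes stood at 311 to 339 and 289 to 351 TPM, and the ATG4 proteases at 176 to 196 and 164 to 199 TPM. In matNeu against GMP, 22 of the 39 genes were higher, 11 were lower and 6 did not pass (limma, Benjamini-Hochberg adjusted p under 0.05 over all tested genes). Of all tested genes 22.8% were higher and 54.1% were lower in that comparison. The median change of the 39 genes was 0.63 on the scale of log2(TPM + 1), beside a median of −0.92 over all tested genes, and 31 of the 39 lay above that median.

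On the deposited scale the summed level rose mainly in the later step, while single genes rose and fell in both. In preNeu against GMP, 12 genes were higher, 19 were lower and 8 did not pass, with a median of −0.55, beside 14.7% higher, 44.3% lower and a median of −0.52 for all tested genes. In matNeu against preNeu, 21 were higher, 6 were lower and 12 did not pass, with a median of 0.44, beside 22.9% higher, 39.8% lower and a median of −0.32 for all tested genes. The 3 comparisons share libraries, so each is given with its own values.

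TPM is a share of the library, and the calls depended on the scale chosen. After rescaling by median-of-ratios factors, the median of all tested genes was −0.20, −0.09 and −0.07 in place of −0.92, −0.52 and −0.32 (matNeu against GMP, preNeu against GMP and matNeu against preNeu). On that scale 29 autophagy genes were higher and 8 lower in matNeu against GMP, beside 34.4% and 41.7% of all genes. In preNeu against GMP 17 were higher and 9 lower, beside 23.1% and 28.1%. In matNeu against preNeu 27 were higher and 6 lower, beside 30.2% and 33.8%. Upper-quartile scaling gave 29 and 8, 17 and 9, and 27 and 5. Many of the genes whose call depends on this choice are named as such below, but not every comparison of every gene is described.

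**Figure D1:**
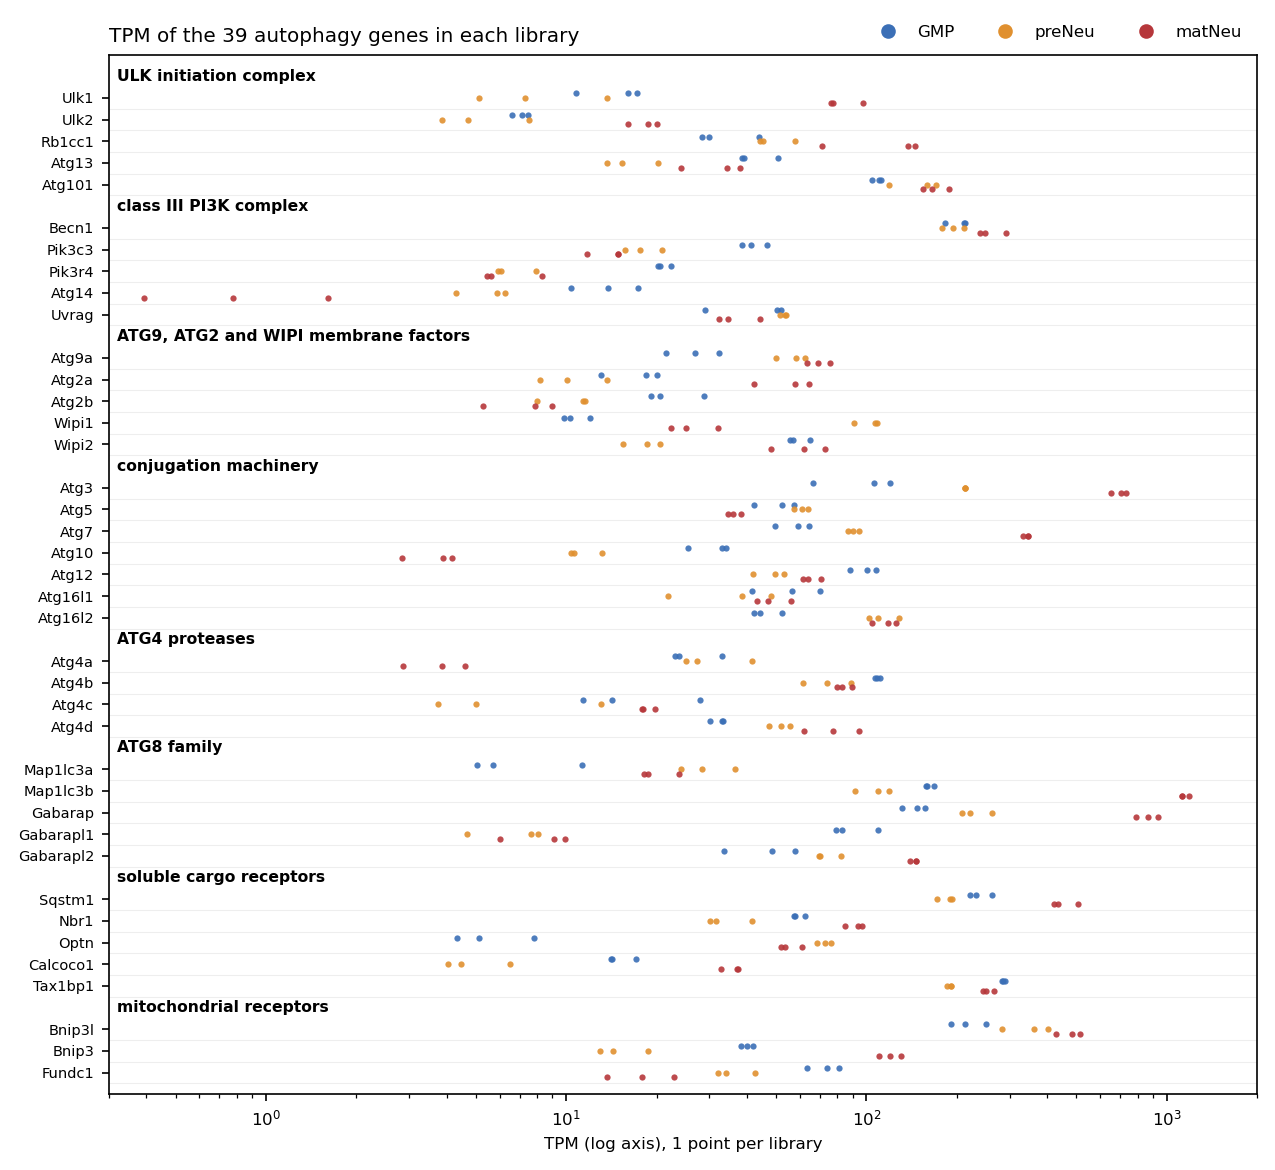
TPM of each of the 39 autophagy genes (horizontal log axis) in the 3 GMP, 3 preNeu and 3 matNeu libraries, 1 point per library, ordered by role. Points of Map1lc3b, Gabarap, Atg3 and Atg7 in matNeu lie to the right of all other stages, while those of Gabarapl1, Atg14, Atg10, Pik3r4 and Fundc1 in GMP lie to the right of the later stages.

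**Figure D2:**
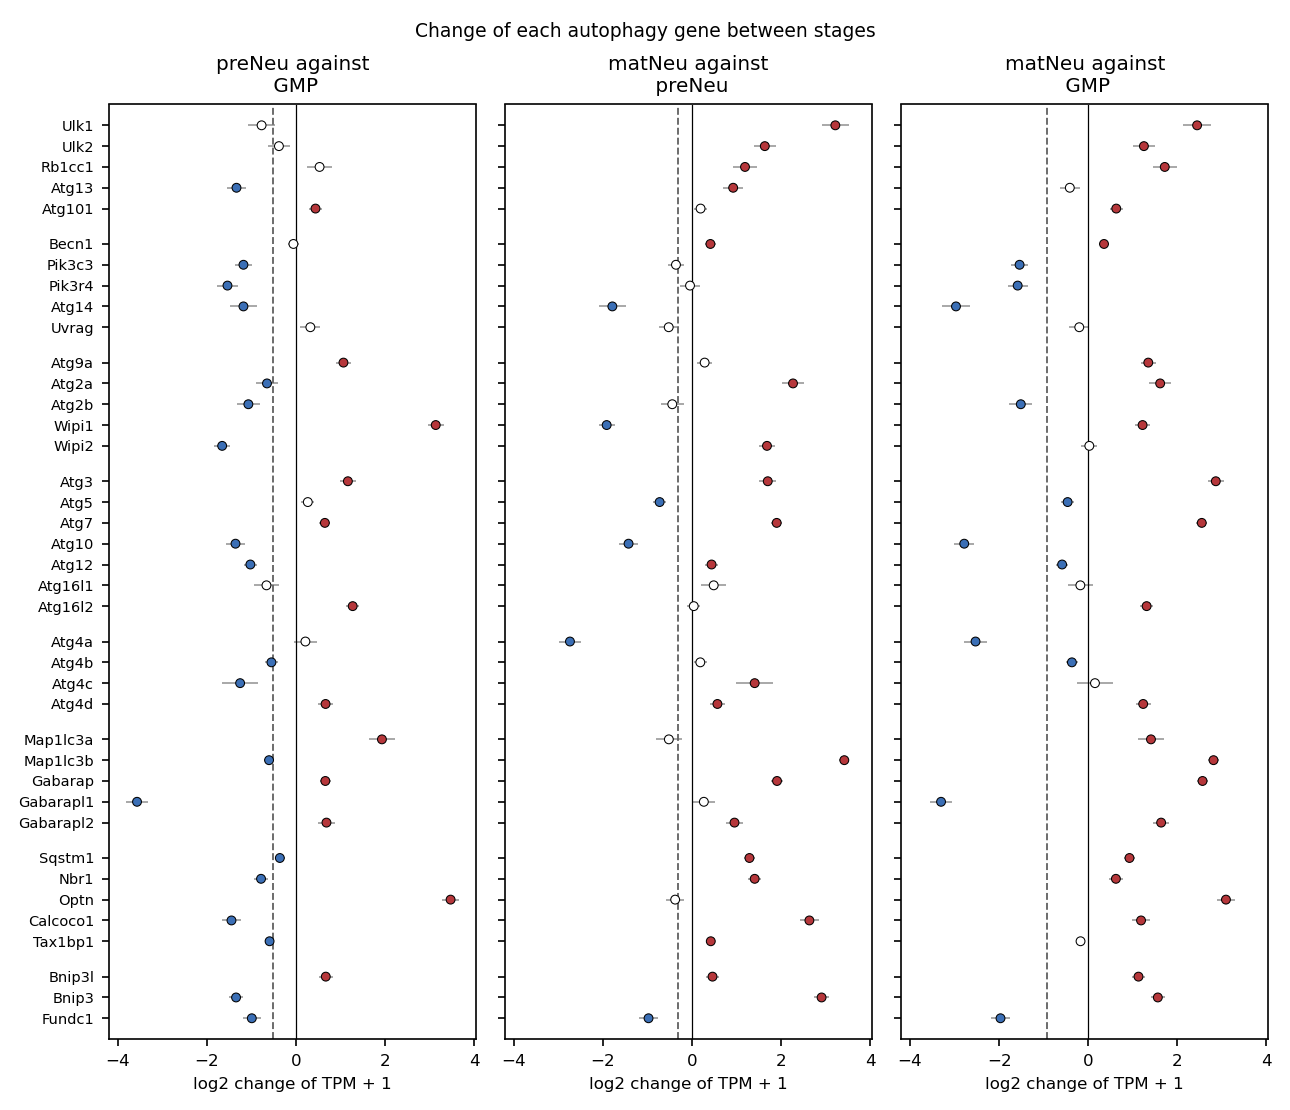
Change of each autophagy gene on the scale of log2(TPM + 1) in the 3 comparisons, with bars of 1 SE. Red points passed the test as higher, blue points as lower and white points did not pass; the dashed line is the median of all 13061 tested genes (−0.52, −0.32 and −0.92 from left to right).

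The ULK initiation complex rose in mature neutrophils. Of its 5 genes 4 were higher in matNeu against GMP and none was lower, beside 22.8% higher and 54.1% lower over all tested genes. The median change was 1.25. Ulk1, the kinase that receives the signals of nutrient and energy state, had 17.3, 16.1 and 10.8 TPM in GMP, 5.11, 7.30 and 13.6 TPM in preNeu, and 76.5, 97.5 and 77.3 TPM in matNeu. All matNeu libraries lay above all others, and the highest preNeu library lay within the range of GMP. The change was 3.22 ± 0.31 (SE) from preNeu to matNeu (limma, adjusted p = 4.81e-06) and 2.45 ± 0.31 from GMP to matNeu (adjusted p = 2.45e-05). From GMP to preNeu it was −0.77 ± 0.31 (adjusted p = 0.0507), and that step passed without preNeu replicate 3 (adjusted p = 0.00474) and without GMP replicate 3 (0.0338). Its paralogue Ulk2 was low throughout, at 16.0 to 20.0 TPM in matNeu against 6.61 to 7.47 TPM in GMP, and Rb1cc1, the scaffold of the complex (FIP200), went from 28.4 to 43.7 TPM in GMP to 70.9 to 145 TPM in matNeu. Both were higher in matNeu against GMP, by 1.25 and 1.72 (limma, adjusted p = 0.000855 and 0.000156). Atg101, which stabilises ATG13, was higher by 0.63 (adjusted p = 0.00248).

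Atg13, the subunit that links the kinase to the scaffold, moved otherwise. It fell by 1.34 from GMP to preNeu, from 38.5 to 50.6 TPM down to 13.7 to 20.2 TPM (limma, adjusted p = 0.000421), and rose by 0.92 from preNeu to matNeu (adjusted p = 0.0037). Its matNeu level of 24.2 to 38.0 TPM lay just under the GMP range, and the difference of −0.41 between these stages had an adjusted p of 0.111 (0.45 after median-of-ratios scaling).

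Of the 5 genes of the class III PI3K complex 3 fell from GMP to matNeu, 1 rose and 1 did not pass, beside 54.1% lower and 22.8% higher over all tested genes. Their median change was −1.54, beside −0.92 over all tested genes. Atg14, the subunit that directs the complex to the site of autophagosome formation, had 10.4, 13.8 and 17.4 TPM in GMP, 5.90, 4.31 and 6.27 TPM in preNeu, and 0.392, 1.61 and 0.774 TPM in matNeu. The 3 stages did not overlap, and it was the lowest of the 39 genes in mature neutrophils and the only one under 1 TPM in any library. It fell by 1.79 on the log2 scale from preNeu to matNeu (SE 0.31, limma adjusted p = 0.000438) and by 2.97 from GMP to matNeu (SE 0.31, adjusted p = 5.44e-06). Its first step of −1.18 (adjusted p = 0.0073) lost its call under both other scalings.

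Pik3r4, the regulatory subunit VPS15, had 20.3, 20.5 and 22.4 TPM in GMP, 5.95, 7.93 and 6.04 TPM in preNeu, and 5.63, 8.29 and 5.46 TPM in matNeu. The later stages overlapped and both lay under GMP, with changes of −1.54 ± 0.23 in preNeu against GMP and −1.58 ± 0.23 in matNeu against GMP (limma, adjusted p = 0.000202 and 7.27e-05). Pik3c3, the catalytic lipid kinase VPS34, fell from 38.4 to 46.6 TPM in GMP to 15.7 to 20.9 TPM in preNeu and 11.8 to 14.9 TPM in matNeu, a change of −1.54 from GMP to matNeu (adjusted p = 1.59e-05). These 3 decreases from GMP to matNeu kept their call under each scaling. Becn1, the Beclin 1 subunit shared by the complexes, stayed at 179 to 291 TPM in all libraries, and its rise of 0.36 from GMP to matNeu (adjusted p = 0.0211) lost its call without GMP replicate 3 (adjusted p = 0.0827) and without matNeu replicate 2 (0.0796).

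Uvrag takes the place of ATG14 in a second form of the complex that acts at endosomes. It had 28.9, 51.8 and 50.3 TPM in GMP, 51.6, 54.2 and 53.8 TPM in preNeu, and 32.2, 34.6 and 44.2 TPM in matNeu. The matNeu libraries lay under the preNeu libraries but within the range of GMP. Its changes of 0.32 ± 0.22, −0.52 ± 0.22 and −0.20 ± 0.22 (preNeu against GMP, matNeu against preNeu, matNeu against GMP) did not pass (limma, adjusted p = 0.236, 0.0615 and 0.428). Without GMP replicate 1 the last 2 of these values passed (adjusted p = 0.0143 for matNeu against preNeu and 0.033 for matNeu against GMP). The former was also called without matNeu replicate 3 (0.0385) and when these 2 stages were fitted alone (0.02). After median-of-ratios scaling the value of matNeu against GMP was 0.66 and called higher (limma, adjusted p = 0.0166). On that scale preNeu against GMP was also called higher (0.83, adjusted p = 0.00881).

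Genes of membrane supply did not move together. Of Atg9a, Atg2a, Atg2b, Wipi1 and Wipi2, 3 were higher and 1 was lower in matNeu against GMP, while 2 were higher and 3 lower in preNeu against GMP. Over all tested genes 22.8% were higher and 54.1% lower in the former comparison, and 14.7% and 44.3% in the latter. Wipi1, which binds phosphatidylinositol 3-phosphate, had 9.81, 12.0 and 10.3 TPM in GMP, 91.1, 107 and 108 TPM in preNeu, and 22.4, 32.1 and 25.0 TPM in matNeu. The 3 stages did not overlap and preNeu stood highest, with a rise of 3.14 ± 0.18 (limma, adjusted p = 3e-07) and then a change of −1.92 ± 0.18 (adjusted p = 3.75e-06). Wipi2, which recruits ATG16L1 to the membrane, had the mirror course, at 65.1, 56.8 and 55.8 TPM in GMP, 15.4, 20.5 and 18.6 TPM in preNeu, and 61.8, 48.3 and 73.1 TPM in matNeu. Only its preNeu libraries stood apart, with −1.66 ± 0.18 in preNeu against GMP (adjusted p = 2.79e-05) and 1.68 ± 0.18 in matNeu against preNeu (adjusted p = 1.37e-05). In matNeu against GMP it was not called as deposited but was called higher under both other scalings (limma, adjusted p = 0.000362 and 0.000409).

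Both lipid transfer proteins of the ATG2 pair were measured, and they parted in mature neutrophils. Atg2a had 42.2 to 64.5 TPM in matNeu against 13.02 to 20.1 TPM in GMP, a rise of 1.62 (limma, adjusted p = 0.000122). Atg2b had 5.30 to 8.99 TPM in matNeu against 19.2 to 28.8 TPM in GMP, a change of −1.51 (adjusted p = 0.000284). Their calls as lower in preNeu against GMP were lost under both other scalings, and that of Atg2a under 11 of 17 alternatives. Atg9a, the scramblase carried on the seed vesicles, rose from 21.5 to 32.2 TPM in GMP to 50.1 to 62.3 TPM in preNeu and 63.2 to 75.5 TPM in matNeu, by 1.07 in the first step (adjusted p = 0.000363) and 0.28 in the later one (adjusted p = 0.177). The later step was called higher under both other scalings (limma, adjusted p = 0.00326 and 0.00192).

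In the conjugation machinery, the shared E1 enzyme and the E2 enzyme of the ATG8 branch rose while the E2 enzyme of the ATG12 branch fell. Atg7, the E1 enzyme that both branches use, had 64.5, 59.0 and 49.5 TPM in GMP, 87.0, 94.2 and 90.6 TPM in preNeu, and 344, 345 and 333 TPM in matNeu. Atg3, the E2 enzyme that passes ATG8 proteins to phosphatidylethanolamine, had 66.2, 106 and 119 TPM in GMP, 214, 213 and 213 TPM in preNeu, and 654, 729.8 and 703 TPM in matNeu. Neither gene had overlapping stages, and both rose in each step. From GMP to matNeu the change was 2.55 ± 0.12 for Atg7 and 2.87 ± 0.19 for Atg3 (limma, adjusted p = 1.26e-08 and 1.19e-07).

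Atg10, the E2 enzyme that couples ATG12 to ATG5, had 32.9, 25.5 and 34.1 TPM in GMP, 10.6, 13.2 and 10.4 TPM in preNeu, and 4.17, 2.83 and 3.88 TPM in matNeu. It too had no overlap between stages, and its changes were −1.36 ± 0.22, −1.43 ± 0.22 and −2.78 ± 0.22 (preNeu against GMP, matNeu against preNeu, matNeu against GMP; limma, adjusted p = 0.000402, 0.000212 and 6.3e-07).

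The parts of the ATG12-ATG5-ATG16L1 complex itself changed less. Atg5 had 42.3 to 57.2 TPM in GMP and 34.5 to 38.3 TPM in matNeu, and Atg12, its ubiquitin-like partner, 88.5 to 108 TPM in GMP, 41.8 to 53.1 TPM in preNeu and 61.7 to 70.4 TPM in matNeu. Both were called lower in matNeu against GMP as deposited, by −0.46 and −0.58 (limma, adjusted p = 0.0148 and 0.00295), but after median-of-ratios scaling Atg5 was called higher (0.40) and Atg12 was not called (0.29). The call of Atg5 was also lost without GMP replicate 2 (adjusted p = 0.0616). From preNeu to matNeu Atg5 changed by −0.73 (adjusted p = 0.00133), a call that upper-quartile scaling lost (0.0712). Atg16l1, which places the complex on the membrane, had 41.6 to 70.3 TPM in GMP and 43.2 to 56.1 TPM in matNeu, ranges that overlapped (−0.18, adjusted p = 0.582; 0.69 and called higher after median-of-ratios scaling). Its paralogue Atg16l2 rose by 1.27 from GMP to preNeu (adjusted p = 3.07e-05), from 42.2 to 52.4 TPM up to 102 to 128 TPM, and stayed at 105 to 126 TPM in matNeu. Under both other scalings Atg16l2 was called higher in matNeu against preNeu (limma, adjusted p = 0.023 and 0.0127).

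Letters that known factors read were searched in the promoters of these genes. RefSeq promoters of 250 bases before to 50 after the start were matched to 32 of the 39 genes, with 36 sequences. On either strand CACGTG (the E-box that TFEB, TFE3 and related factors read) was in 5 of them, those of Atg3, Atg5, Atg7, Atg14 and Bnip3, and in 7.15% of 32851 promoters of the genome. The longer TCACGTGA, which contains CACGTG, was in that of Atg3 and in 0.974% of all promoters. The sequence of Atg7 in that table starts from a site 27999 bp inside the gene and that of Atg14, on the − strand, from a site at −2215 bp in genome coordinates, also inside the gene, so they lie apart from the gene starts used for peaks below. The letters CCGGAAGT, read by ETS factors, were in those of Atg101 and Gabarapl2 (3.89% of all), and GTAAACA (FOXO factors; 3.65%), GAGGAAGT (SPI1; 3.2%) and TTGCGCAA (C/EBP factors; 0.183%) were in none. The promoters of Atg3 and of Bnip3, described below, are shown from GRCm38 as those of genes that rose in mature neutrophils and hold the letters, 5′ to 3′ on the strand of the gene. Capitals mark CACGTG or TCACGTGA.
Atg3, chr16:45158579-45158878, + strand: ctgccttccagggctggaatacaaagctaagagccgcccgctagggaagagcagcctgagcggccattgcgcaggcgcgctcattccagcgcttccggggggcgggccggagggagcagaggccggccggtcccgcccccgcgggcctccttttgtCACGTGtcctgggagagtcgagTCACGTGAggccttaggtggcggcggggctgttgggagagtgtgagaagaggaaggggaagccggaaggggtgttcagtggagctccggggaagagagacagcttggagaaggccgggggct
Bnip3, chr7:138909457-138909756, − strand: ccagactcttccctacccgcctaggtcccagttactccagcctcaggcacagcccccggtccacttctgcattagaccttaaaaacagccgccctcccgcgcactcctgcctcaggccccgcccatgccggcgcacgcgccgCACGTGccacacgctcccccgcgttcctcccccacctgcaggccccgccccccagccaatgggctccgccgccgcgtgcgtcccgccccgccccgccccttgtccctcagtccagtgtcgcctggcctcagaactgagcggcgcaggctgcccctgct
The E-box of Atg3 begins at base 157 and the longer match at base 179, and the E-box of Bnip3 begins at base 143. Atg14, the gene with the lowest level in matNeu, had the same letters in its promoter, so the E-box was found in genes that rose and in genes that did not.

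ATG4 proteases trim new ATG8 proteins and release them from membranes again. Of the 4 genes 1 was higher and 2 were lower in matNeu against GMP, close to the 22.8% higher and 54.1% lower over all tested genes. Atg4a, which acts mainly on the GABARAP type, had 33.0, 23.7 and 23.0 TPM in GMP, 25.1, 27.3 and 41.5 TPM in preNeu, and 2.86, 3.87 and 4.59 TPM in matNeu. The matNeu libraries lay far under the others, which overlapped, and its change from preNeu to matNeu was −2.74 ± 0.25 (limma, adjusted p = 3.92e-06). Atg4d rose from 30.1 to 33.4 TPM in GMP to 62.1 to 94.8 TPM in matNeu, by 1.24 (adjusted p = 4.61e-05). Atg4b, the most active of the proteases, was the most abundant at 61.7 to 111 TPM, and its call as lower in matNeu (−0.36, adjusted p = 0.0379) turned to a call as higher after median-of-ratios scaling (0.51) and was lost under 7 of 17 alternatives. Its call as lower in preNeu against GMP (−0.55, adjusted p = 0.00706) was lost under both other scalings (0.796 and 0.675). Atg4c varied widely within stages, from 11.4 to 27.8 TPM in GMP and from 3.74 to 13.04 TPM in preNeu, and its call as lower in preNeu (−1.25, adjusted p = 0.0228) was lost under both other scalings and under 5 further alternatives.

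The ATG8 family grew in sum and changed in make-up. Its 5 measured genes summed to 412 to 484 TPM in GMP, 429 to 465 TPM in preNeu and 2141 to 2245 TPM in matNeu. Map1lc3b (LC3B), the family member most used to follow autophagosomes, had 168, 158 and 159 TPM in GMP, 91.9, 109 and 119 TPM in preNeu, and 1127, 1122 and 1185 TPM in matNeu. The 3 stages did not overlap, preNeu was lowest, and the rise from preNeu to matNeu was 3.42 ± 0.11 (limma, adjusted p = 2.68e-09), the largest of the 39 genes in that comparison. Its decrease from GMP to preNeu (−0.60 ± 0.11, adjusted p = 0.00102) lost its call under both other scalings. The table also lists Gm20388, a gene that overlaps Map1lc3b on the same strand, at 0.972 to 30.3 TPM, so a small part of these reads could belong to either.

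Gabarap, of the second subfamily, rose in each step, from 147, 131 and 156 TPM in GMP to 262, 221 and 208 TPM in preNeu and 938, 869 and 789 TPM in matNeu. No stage overlapped another, and the changes were 0.66 ± 0.12 and 1.91 ± 0.12 (limma, adjusted p = 0.00102 and 2.68e-07). Gabarapl2 (GATE-16) followed with 57.9, 33.5 and 48.4 TPM, 70.3, 82.2 and 69.5 TPM, and 146, 146 and 139 TPM. Its stages did not overlap either, and it rose by 1.64 ± 0.18 from GMP to matNeu (adjusted p = 9.91e-06). Map1lc3a (LC3A) was low, at 5.04, 5.70 and 11.3 TPM in GMP, 36.5, 28.3 and 24.1 TPM in preNeu, and 23.7, 18.7 and 18.1 TPM in matNeu. It rose by 1.93 ± 0.29 from GMP to preNeu (adjusted p = 0.000202), and its preNeu libraries all lay above its matNeu libraries, a difference that did not pass (−0.52 ± 0.29, adjusted p = 0.137).

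Gabarapl1 was the exception in the family. It had 79.3, 82.9 and 109 TPM in GMP, 4.69, 7.66 and 8.03 TPM in preNeu, and 9.08, 6.02 and 9.92 TPM in matNeu. GMP stood far above the later stages, which overlapped. Its changes of −3.57 ± 0.26 to preNeu and −3.30 ± 0.26 to matNeu (limma, adjusted p = 1.52e-06 and 4.75e-07) were the largest decreases of the 39 genes in both comparisons with GMP, and the step from preNeu to matNeu did not pass as deposited (0.27 ± 0.26, adjusted p = 0.39; called higher under both other scalings). As a share of the ATG8 sum, Gabarapl1 went from 17.3 to 22.6% in GMP to 1.01 to 1.87% in preNeu and 0.278 to 0.463% in matNeu. Map1lc3b made up 32.8 to 38.4%, 19.7 to 27.8% and 50.2 to 55.3%, and Gabarap 31.9 to 32.3%, 48.5 to 56.3% and 36.8 to 41.8%. Shares within the family do not depend on the scaling between libraries.

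**Figure D3:**
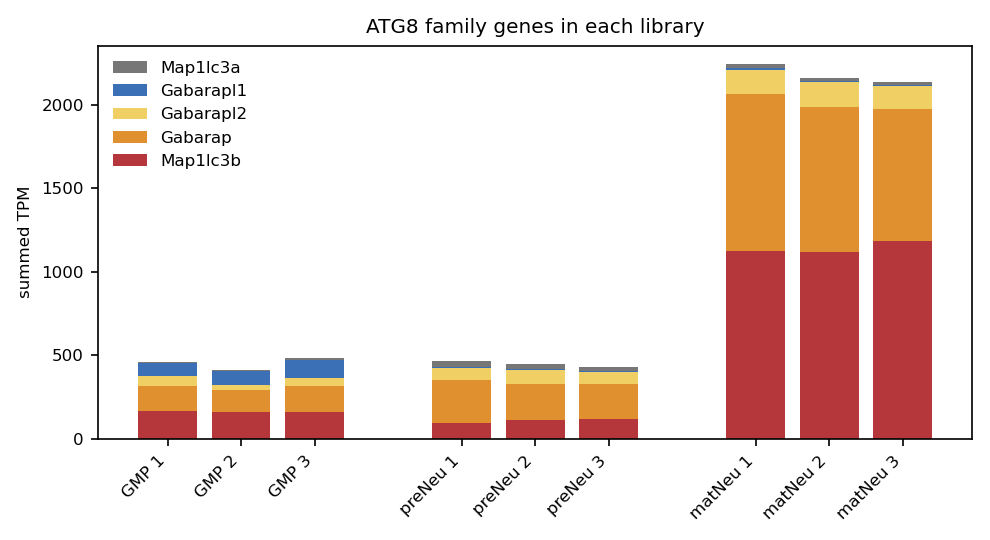
Summed TPM of the 5 ATG8 family genes in each library, as stacked bars from 0. The sum lies between 412 and 484 TPM in the GMP and preNeu libraries and between 2141 and 2245 TPM in matNeu, and the part of Gabarapl1 is prominent only in GMP.

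The promoter of Gabarapl1 is shown from GRCm38 because it held AAATCA, the core that GFI1 reads, and because the gene fell most. The core was in the promoters of Atg13, Gabarapl1 and, at the inner start given above, Atg7 among the 36 sequences and in 14% of all promoters. Capitals mark the core on the other strand, which begins at base 96.
Gabarapl1, chr6:129532942-129533241, + strand: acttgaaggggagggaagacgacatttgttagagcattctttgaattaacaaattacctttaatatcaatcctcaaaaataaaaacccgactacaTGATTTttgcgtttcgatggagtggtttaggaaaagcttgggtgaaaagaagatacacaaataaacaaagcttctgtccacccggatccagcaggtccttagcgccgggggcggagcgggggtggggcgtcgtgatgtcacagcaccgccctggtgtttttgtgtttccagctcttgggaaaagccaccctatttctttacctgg
No CHD4 peak lay on this promoter in either genotype of GMP, but 2 lay close by, as described with the CHD4 sites below.

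Of the soluble cargo receptors, Sqstm1, Nbr1 and Calcoco1 were lowest in preNeu and highest in matNeu, Tax1bp1 was lowest in preNeu and highest in GMP, and Optn was lowest in GMP. The 5 genes summed to 581 to 639 TPM in GMP, 466 to 505 TPM in preNeu and 867 to 926 TPM in matNeu. In preNeu against GMP 4 were lower and 1 was higher, and in matNeu against preNeu 4 were higher and none was lower. Over all tested genes 44.3% were lower and 14.7% higher in the former comparison, and 22.9% higher and 39.8% lower in the latter. After median-of-ratios scaling 3 of the 4 decreases in preNeu (Sqstm1, Nbr1 and Tax1bp1) were not called.

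Sqstm1 (p62), the receptor for ubiquitin-marked aggregates, had 232, 262 and 221 TPM in GMP, 172, 193 and 189.9 TPM in preNeu, and 420.5, 436 and 507 TPM in matNeu. The stages did not overlap, and it rose by 1.29 ± 0.12 from preNeu to matNeu (limma, adjusted p = 3.25e-06). Its step of −0.36 ± 0.12 from GMP to preNeu (adjusted p = 0.0212) was not called without GMP replicate 2 (adjusted p = 0.0817) or without preNeu replicate 1 (0.0693). Nbr1, a partner of p62 in aggregates, had 57.4, 62.6 and 57.9 TPM, then 30.0, 31.5 and 41.6 TPM, then 94.1, 97.0 and 84.8 TPM. Its stages did not overlap, and its rise from preNeu to matNeu was 1.41 ± 0.15 (adjusted p = 1.25e-05).

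Optn (optineurin), a receptor for bacteria and mitochondria that the kinase TBK1 activates, had 4.32, 7.83 and 5.13 TPM in GMP, 68.3, 72.8 and 76.2 TPM in preNeu, and 53.7, 60.9 and 52.1 TPM in matNeu. GMP was far under the later stages, and matNeu lay just under preNeu without overlap. Its changes of 3.47 ± 0.20 to preNeu and 3.09 ± 0.20 to matNeu were the largest increases of the 39 genes in both comparisons with GMP (limma, adjusted p = 3.28e-07 and 1.1e-07). The step from preNeu to matNeu did not pass (−0.38 ± 0.20, adjusted p = 0.12; adjusted p = 0.0254 when these 2 stages were fitted alone).

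Calcoco1, a receptor for the endoplasmic reticulum and the Golgi apparatus, had 14.2, 17.1 and 14.1 TPM in GMP, 4.47, 4.04 and 6.48 TPM in preNeu, and 32.8, 37.0 and 37.4 TPM in matNeu. All 3 stages were apart, with −1.45 ± 0.21 and then 2.64 ± 0.21 (limma, adjusted p = 0.000177 and 1.21e-06). Tax1bp1, which works with p62 and Nbr1 on aggregates, had 284, 289 and 283 TPM in GMP, 191, 185 and 191 TPM in preNeu, and 266, 250.3 and 244 TPM in matNeu. The stages were apart but close in level. It fell by 0.59 on the log2 scale to preNeu (SE 0.09, adjusted p = 0.000324), rose by 0.42 ± 0.09 to matNeu (adjusted p = 0.00244), and differed by −0.17 ± 0.09 between matNeu and GMP (adjusted p = 0.119). After median-of-ratios scaling the last value was 0.71 and called higher, and the decrease in preNeu was not called.

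The receptors that sit in the mitochondrial outer membrane and call for mitophagy parted from one another. Bnip3l (NIX) had 249, 191 and 213 TPM in GMP, 403, 360.4 and 282 TPM in preNeu, and 429, 486 and 514 TPM in matNeu. It rose in each step without overlap, by 0.67 ± 0.15 and 0.46 ± 0.15 (limma, adjusted p = 0.00336 and 0.0227), and the second of these calls was lost without preNeu replicate 3, without matNeu replicate 2 or without matNeu replicate 3 (adjusted p up to 0.0851 over the alternatives that lost it). A processed copy listed apart, Bnip3l-ps, had 0 to 39.9 TPM, so reads could be split between them. Bnip3, its paralogue and a known target of hypoxia signalling, had 40.0, 41.8 and 38.1 TPM in GMP, 12.9, 14.3 and 18.7 TPM in preNeu, and 120.0, 131 and 111 TPM in matNeu. Its stages were apart, with preNeu lowest and matNeu highest, and the changes were −1.34 ± 0.16 and then 2.91 ± 0.16 (adjusted p = 4.96e-05 and 7.94e-08).

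Fundc1, the third of these receptors, fell at each step. It had 81.3, 63.2 and 74.1 TPM in GMP, 31.9, 34.2 and 42.7 TPM in preNeu, and 13.7, 17.9 and 22.9 TPM in matNeu, again without overlap. The change from GMP to matNeu was −1.97 ± 0.21 (limma, adjusted p = 5.74e-06), and that from GMP to preNeu (−0.99 ± 0.21, adjusted p = 0.00187) lost its call under both other scalings. Over the same stages the share of TPM from mitochondrial DNA fell, as given above. Its part in these values was not tested.

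Other genes of the pathway were taken from 5 lists. Among upstream kinases and regulators 6 of 20 were higher and 11 lower in matNeu against GMP, with a median of −0.74, beside 22.8% higher, 54.1% lower and a median of −0.92 over all tested genes, against which the counts of all 5 lists stand. Trp53inp1, an LC3-binding protein that p53 induces, rose most, from 2.41, 2.33 and 3.20 TPM in GMP over 12.3, 12.98 and 22.7 TPM in preNeu to 202, 218 and 260.2 TPM in matNeu (5.96 ± 0.24, limma adjusted p = 3.59e-09). Bcl2, which restrains Beclin 1, had 25.1 to 30.0 TPM in GMP and 0.256 to 0.918 TPM in matNeu (−4.18 ± 0.33, adjusted p = 5.96e-07). Both genes had no overlap between GMP and matNeu.

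Of 9 tested transcription factors known to act on autophagy genes, 5 were higher and 2 were lower in matNeu against GMP. Tfeb, the factor of the lysosomal and autophagy gene network, had 4.24, 5.19 and 7.30 TPM in GMP, 15.2, 19.5 and 12.5 TPM in preNeu, and 154, 143 and 120.1 TPM in matNeu, a rise of 4.43 ± 0.23 (limma, adjusted p = 1.94e-08). Zkscan3, described as a repressor of that network, went from 60.1 to 61.4 TPM in GMP to 16.3 to 26.5 TPM in matNeu (−1.41, adjusted p = 4.48e-05). The stages of Tfeb did not overlap, and neither did those of Zkscan3 in GMP and matNeu.

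Among 8 genes of early membrane steps 4 were higher and 3 lower, led by Sh3glb1 (Bif-1, a membrane-bending partner of UVRAG), which had 21.1 to 45.8 TPM in GMP and 399 to 541 TPM in matNeu (3.65, limma adjusted p = 2.16e-07), and by Epg5, a tether to the lysosome, with −1.16 (adjusted p = 0.00306, not called under the other scalings). Among 15 genes of fusion with the lysosome 6 were higher and 7 lower, with Stx17, the syntaxin of the autophagosome, at 1.46 (adjusted p = 0.000149) and Vps16, a core subunit of the HOPS tether, at −1.80 (adjusted p = 2.47e-06). Among 12 further cargo and organelle receptors 3 were higher and 6 lower. Ccpg1 and Tex264, both receptors of the endoplasmic reticulum, stood at the ends, at 55.2 to 60.1 TPM in GMP against 1007 to 1168 TPM in matNeu for Ccpg1 (4.20, adjusted p = 6.62e-10) and 33.6 to 39.5 TPM against 0.446 to 4.05 TPM for Tex264 (−3.62, adjusted p = 8.55e-06). After median-of-ratios scaling the early membrane genes had 7 higher and 0 lower, the fusion genes 8 and 2, the receptors 7 and 3, the upstream regulators 7 and 7, and the transcription factors 6 and 1. The 3 early membrane genes called lower became 1 without GMP replicate 2 or without matNeu replicate 2.

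CHD4, the ATPase of the NuRD complex, was called at few promoters of autophagy genes. A promoter was taken as 2 kb before to 500 bp after the start of the gene in GENCODE M21. Of the 39 promoters 2 (5.13%) overlapped a CHD4 peak of WT GMP, beside 12.9% of 11865 promoters of tested protein-coding genes, and 1 (2.56%) overlapped a CHD4 peak of Gfi1-/- GMP, beside 2.45%. With such small counts and 1 library per genotype, these shares are descriptions. The Gfi1-/- list held 7316 peaks and the WT list 35790, and the depth of the libraries is not known, so genotype and depth of the library cannot be told apart for a peak that is missing.

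The promoter of Tax1bp1 was the one called in both genotypes. The WT peak, chr6:52712081-52713875 (GRCm38), had a fold enrichment of 16.3 over background and a −log10 q-value of 53.2, and the Gfi1-/- peak, chr6:52713511-52713675, had 4.44 and 4.49. By fold enrichment the WT peak ranked at percentile 83.7 of its list and the Gfi1-/- peak at percentile 10.5 of its own. The promoter of Tax1bp1 is shown because it carries both, with the extent of the Gfi1-/- peak in capitals, bases 33 to 197. The summit of the WT peak lies at base 124, inside the capitals.
Tax1bp1, chr6:52713479-52713778, + strand: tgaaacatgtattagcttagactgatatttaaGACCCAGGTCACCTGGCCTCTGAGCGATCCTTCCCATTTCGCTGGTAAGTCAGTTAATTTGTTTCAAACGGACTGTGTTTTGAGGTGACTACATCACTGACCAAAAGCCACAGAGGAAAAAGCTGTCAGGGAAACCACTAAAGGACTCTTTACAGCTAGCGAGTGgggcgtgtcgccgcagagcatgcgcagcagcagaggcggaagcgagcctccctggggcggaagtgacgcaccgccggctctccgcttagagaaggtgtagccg
At the Uvrag promoter the WT peak chr7:99140458-99140679 was weaker, with a fold enrichment of 5.58 and a −log10 q-value of 8.29, and had no counterpart in Gfi1-/- GMP. Its summit lay outside the promoter. As deposited, neither gene was called in matNeu against GMP.

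Most CHD4 sites of these genes lay inside them. In WT GMP 15 of the 39 genes had a CHD4 peak inside the gene body or up to 10 kb away, beside 43.3% of tested protein-coding genes, with 51 peaks in all. In Gfi1-/- GMP 5 of the 39 genes had 1 peak each, beside 14.3%. The long genes Uvrag (256.1 kb), Atg5 (95.9 kb) and Atg7 (217.5 kb) held 11, 8 and 6 of the 51 peaks, so 25 peaks fell in 3 genes. Of the 51 WT peaks 5 (9.8%) overlapped a CHD4 peak of Gfi1-/- GMP, beside 18.5% of all 35790 WT peaks. The study itself reported a far smaller set of CHD4 peaks in WT GMP than the deposited list. In that set it described CHD4 as largely retained without GFI1 at sites not shared with GFI1, and as lost at most shared sites. The shares given here hold for the deposited lists and not for that set.

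The 5 shared sites were the 5 strongest of the 51 by fold enrichment in WT. One lay in an intron of Uvrag at chr7:99133663-99134604, with its middle 7008 bp into the gene (fold enrichment 27.6 in WT and 4.26 in Gfi1-/-). Another lay upstream of Atg3 at chr16:45148432-45149058, overlapping the neighbouring gene Slc35a5 (25.8 and 2.97). The third lay downstream of Gabarapl1 at chr6:129547883-129548683, 15123 bp from its start and outside any protein-coding gene (25.7 and 9.04). The fourth overlapped an exon of Nbr1 at chr11:101580885-101581773, 469 bp from the start of the adjacent gene Tmem106a (23.4 and 9.16). The fifth was the Tax1bp1 promoter. In the WT list the first 4 sites ranked between percentile 91.8 and 94.2 by fold enrichment. In the Gfi1-/- list those of Gabarapl1 and Nbr1 ranked at percentile 77.7 and 78.9 and those of Uvrag and Atg3 at 7.5 and 2.3.

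Windows of 200 bases around the summit, which lies at base 101, are shown from GRCm38 for 3 of these sites, all on the + strand of the genome. They show how differently the letters of known factors fell at strong CHD4 sites. Capitals mark GTAAACA (FOXO core) at Uvrag and AAATCA (GFI1 core) at Atg3, and the window at Gabarapl1 held none of the 7 motifs searched.
Uvrag, chr7:99134008-99134207: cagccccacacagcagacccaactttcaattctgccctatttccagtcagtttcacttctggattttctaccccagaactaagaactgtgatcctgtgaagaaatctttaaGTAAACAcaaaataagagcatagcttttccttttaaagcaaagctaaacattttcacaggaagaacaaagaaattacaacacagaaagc
Atg3, chr16:45148663-45148862: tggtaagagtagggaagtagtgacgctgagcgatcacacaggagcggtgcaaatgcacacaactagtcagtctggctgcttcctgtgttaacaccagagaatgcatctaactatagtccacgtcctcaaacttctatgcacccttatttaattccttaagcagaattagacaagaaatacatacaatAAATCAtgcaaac
Gabarapl1, chr6:129548112-129548311: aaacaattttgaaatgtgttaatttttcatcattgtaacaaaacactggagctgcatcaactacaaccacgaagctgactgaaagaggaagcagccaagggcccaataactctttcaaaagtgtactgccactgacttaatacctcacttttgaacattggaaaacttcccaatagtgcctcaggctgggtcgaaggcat
Over the 51 windows AAATCA was in 5 and GAGGAAGT in 5, beside 12% and 11.7% of 35728 windows at all WT CHD4 peaks. GTAAACA was in 2 (2.22% of all), CACGTG in 2 (1.84%), TCACGTGA, which contains CACGTG, in 1 (0.118%), and CCGGAAGT (0.291%) and TTGCGCAA (0.151%) in none.

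**Figure D4:**
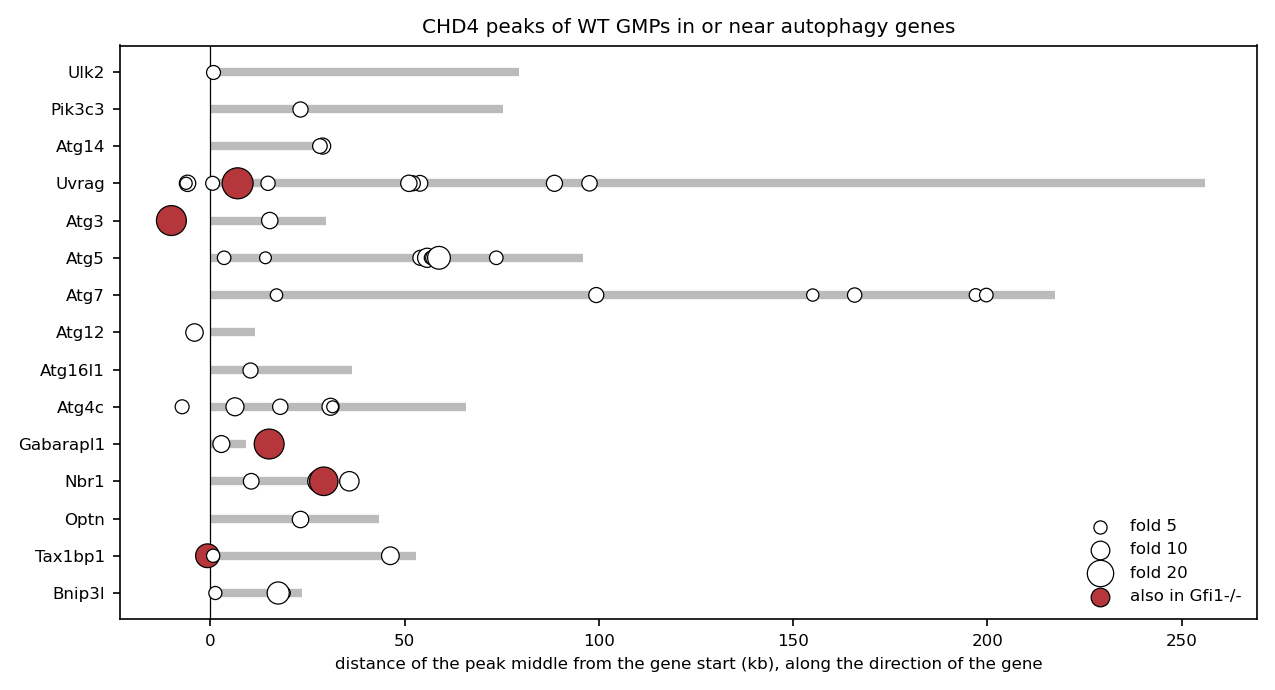
CHD4 peaks of WT GMP in or near the 15 autophagy genes that had any, by the distance of the peak's middle from the gene start in kb along the gene. Grey bars span the gene, the area of a circle grows with fold enrichment, and red circles overlap a CHD4 peak of Gfi1-/- GMP; the 5 red circles are at Uvrag, Atg3, Gabarapl1, Nbr1 and Tax1bp1.

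H3K4me2 at the CHD4 sites differed by stage. Of the 51 sites 17 (33.3%) lay under an H3K4me2 peak in GMP, 31 (60.8%) in preNeu and 28 (54.9%) in matNeu, beside 37.8%, 59.5% and 52.5% of all WT CHD4 sites. At 15 sites (29.4%) the mark was called at all stages, at 11 (21.6%) in preNeu and matNeu only, and at 18 (35.3%) at none. The 2 sites that overlapped the mark in GMP and preNeu but not in matNeu were both those of Gabarapl1, the one downstream and an intronic one at chr6:129535804-129536165 (fold enrichment 8.20). At the downstream site the stretch called in Gfi1-/- GMP, chr6:129548054-129548352, holds the WT summit and overlapped the mark in preNeu only. The GMP mark there lay over a flank of the WT peak. The site upstream of Atg3 had the mark in preNeu and matNeu only, as did the intronic site of Bnip3l at chr14:66991140-66991705 (fold enrichment 14.1). The strong site of Uvrag had it at all stages and that of Nbr1 in preNeu only. The stretch of the Nbr1 site called in Gfi1-/- GMP, chr11:101581131-101581347, overlapped the mark at no stage.

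At promoters H3K4me2 was called at 33 of the 39 promoters (84.6%) in GMP, 36 (92.3%) in preNeu and 36 (92.3%) in matNeu, beside 86.7%, 89.4% and 88.1% of promoters of tested protein-coding genes. Peaks with a −log10 q of 5 or more lay at 14 promoters in GMP and at 36 in each later stage. The shares of promoters of tested protein-coding genes at that threshold were 36.6% in GMP, 86.6% in preNeu and 84.8% in matNeu. The promoters of Rb1cc1, Wipi2 and Atg14 had no peak at any stage, and those of Atg4a, Atg4b and Fundc1 had none in GMP. Where any transcript start of a gene was allowed, an alternative added after the data were seen, 38, 39 and 39 of the 39 genes had the mark, and Atg4a in GMP was the exception. The shares of tested protein-coding genes were then 91%, 92.7% and 91.7%. Over all H3K4me2 peaks the median fold enrichment was 2.89 in GMP, 4.55 in preNeu and 3.78 in matNeu, so the GMP library was the weakest. The median fold enrichment at the promoters of these genes was 3.64 in GMP, 10.1 in preNeu and 7.62 in matNeu, beside 3.58, 10.5 and 8.52 at those of tested genes with a peak. ATAC-seq peaks, of which the same list was deposited for preNeu and matNeu, overlapped 30 of the 39 promoters (76.9%), beside 62.5%. Those without one were Rb1cc1, Atg4b, Wipi2, Gabarapl1, Pik3r4, Atg14, Calcoco1, Pik3c3 and Fundc1. With any transcript start allowed, 33 of the 39 genes had an ATAC-seq peak, among them Rb1cc1, Atg4b and Wipi2, beside 67.2% of tested genes.

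Some promoters gained a wide domain of the mark. The peak at Atg7 was 1914 bp wide in GMP, 3574 bp in preNeu and 14524 bp in matNeu (chr6:114642566-114657089), where it was the widest of the 39. The peak at Atg3 widened from 3448 over 7156 to 10652 bp (chr16:45154922-45165573 in matNeu), and that at Gabarap from 1733 over 8851 to 8720 bp. That at Atg12 went from 1825 over 10862 to 10519 bp. Of these wide peaks, those at Atg12 in preNeu and matNeu also overlapped the neighbouring gene Ap3s1, and those at Atg3 overlapped Slc35a5. The peak at Gabarap ran past the end of the gene at 69994951, to 69998904 in preNeu and 69999191 in matNeu. The width at these 3 promoters therefore cannot be assigned to the autophagy gene alone. Median widths over the promoters of these genes with a peak were 2083, 3422 and 3199 bp, beside 2206, 3327 and 2595 bp for tested genes. The peak at Gabarapl1 went the other way in the later step, from 3318 bp in GMP and 4019 bp in preNeu to 1685 bp in matNeu, although by fold enrichment it ranked at percentile 21.2, 43.6 and 91.9 of the 3 stages. Atg7, Atg3 and Gabarap are also genes whose RNA rose in each step. The RNA of Atg12 fell from GMP to preNeu (−1.02) and rose from preNeu to matNeu (0.44). In matNeu against GMP it was called lower as deposited (−0.58) but not under the other scalings. The relation of width to RNA was not tested.

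Fold enrichment is also given as a rank within its stage. The lists differ in length and the GMP values span only 2.88 to 4.64 at these promoters, against 5.22 to 14.9 in preNeu, so ranks are descriptions of each list. The promoter peak of Wipi1 ranked at percentile 50.5 in GMP, at 94.8 in preNeu and at 40.3 in matNeu. That of Optn ranked at 74.7, 15.1 and 7.6. That of Map1lc3b ranked at 74.2, 81.4 and 65.1, and that of Ulk1 at 91.2, 92.4 and 71.2. With 1 library per stage none of these differences has an error.

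**Figure D5:**
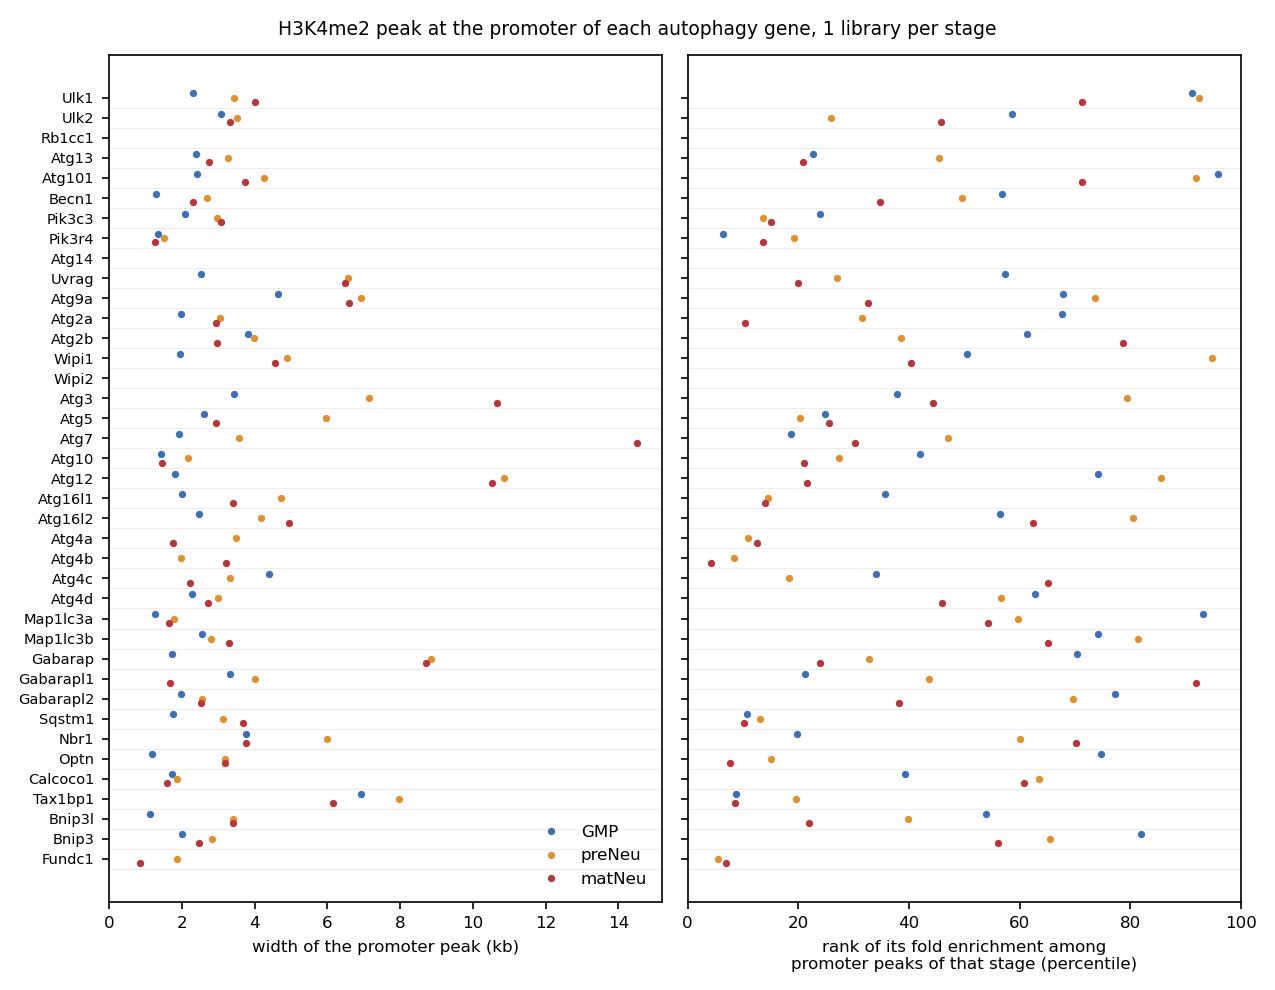
H3K4me2 peak at the promoter of each autophagy gene in GMP, preNeu and matNeu, 1 library per stage, as its width in kb (left) and as the percentile of its fold enrichment among promoter peaks of that stage (right); genes without a point had no peak at that stage. The peaks at Atg7 and Atg3 are widest in matNeu, at 14524 and 10652 bp.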

How the data were processed

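RNA-seq, ChIP-seq and ATAC-seq files of mouse bone marrow cells were used as deposited, with samples grouped by their titles. RNA was made into libraries with a TruSeq Stranded mRNA kit, and chromatin for ChIP was cross-linked with EGS and formaldehyde. The authors deposited expression as TPM per gene and library. The submitters' processing notes name kallisto 0.44.0, while the methods of the study describe TopHat, HTSeq and DESeq, and TPM keeps no depth, so the depth of each library is unknown and a count test was not used. For ChIP-seq and ATAC-seq the authors deposited MACS-style peaks, each with its enrichment over background as a linear fold (ratio) and its −log10 q-value. The notes name BWA 0.7.17, Trimmomatic 0.36, MACS2 2.1.0 and build mm10, and replicates were not pooled. The peak threshold is not given in the sources used here. Peak lists of GFI1 and H3K4me3 run beyond chromosome ends of GRCm38 and were not used. Both ATAC-seq lists held the same 16307 peaks and served as 1 list. Unused columns of per-sample values in the expression file numbered 0.

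Genes that reached 1 TPM in 3 or more of the 9 libraries were tested with limma 3.58.1 (R 4.3.3) on log2(TPM + 1), in 1 fit with cell type as the only term and a variance trend, and p-values were adjusted by the Benjamini-Hochberg method over all 13061 genes at 0.05. A change on this scale understates that of low genes. An exact permutation test of 3 against 3 libraries cannot go below p = 0.1 and was not used. The steps were tested on simulated data. Peaks were assigned to promoters and genes by an overlap of at least 1 bp with GENCODE M21 (Python 3.11.15, pandas 2.3.3, numpy 2.4.6), and sequences came from GRCm38 (pysam 0.24.0) and the RefSeq promoter table of GRCm38.p6. Plots were drawn with matplotlib 3.10.9. Full values are given for the 6 largest called changes each way in matNeu against GMP, for the 3 largest each way in the other comparisons, for the ATG8, cargo and mitochondrial receptor genes and for genes with a CHD4 promoter peak, and other genes are given by ranges. Of 5 further lists of pathway genes, the largest call each way was named. The genes and lists were chosen with earlier results of these data known. The alternatives tried were other pseudocounts, filters and scalings, fits of 2 stages, a replicate block, no variance trend, a minimum change, each library left out, and other peak thresholds and promoter definitions.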

Additional observations from a re-analysis of the deposited data

How the results depend on the processing

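Of the 91 calls of single autophagy genes in the 3 comparisons, 20 lost significance or changed sign under at least 1 of 17 alternatives (a minimum change of 1 on the log2 scale aside), and 20 gene and comparison pairs that were not called passed under at least 1. The scale mattered most. Under median-of-ratios and upper-quartile scaling, in that order, all genes called higher in matNeu against GMP went from 2976 to 4499 and 4546, and in preNeu against GMP all genes called higher from 1925 to 3022 and 2949 and lower from 5781 to 3676 and 3761. Autophagy genes lower in preNeu against GMP went from 19 to 9 and 9. In matNeu against GMP both scalings gave 7 higher and 0 lower for the early membrane genes (4 and 3 as deposited), 7 and 3 for other cargo receptors (3 and 6), 2 lower for fusion genes (7), 7 lower for upstream regulators (11) and 1 lower for transcription factors (2).

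The sign of single genes turned under the same 2 scalings, in matNeu against GMP, for Atg13 (0.45 and 0.48), Uvrag (0.66 and 0.69), Atg5 (0.40 and 0.43), Atg12 (0.29 and 0.32), Atg16l1 (0.69 and 0.72), Atg4b (0.51 and 0.54) and Tax1bp1 (0.71 and 0.74). In preNeu against GMP it turned for Ulk2 (0.056 and 0.035), Becn1 (0.46 and 0.43) and Sqstm1 (0.15 and 0.12). In matNeu against preNeu it turned for Pik3r4 (0.28 and 0.33) and, under upper-quartile scaling, for Pik3c3 (0.039) and Optn (0.040). The cause of the shift between scales was not tested.

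With a minimum log2 change of 1, autophagy genes in preNeu against GMP were 6 higher and 12 lower, all genes higher in that comparison 1276, fusion genes 3 higher and 4 lower, and early membrane genes and transcription factors each 1 lower. CHD4 promoters of WT GMP went from 2 to 1 with an overlap of at least 50% or a summit inside and to 3 within 1 kb of the gene start, the Gfi1-/- promoter from 1 to 0 and H3K4me2 promoters of GMP from 33 to 14 at a −log10 q of at least 5.

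With each library left out, autophagy genes higher and lower ranged over 21 to 22 and 9 to 11 in matNeu against GMP, 11 to 13 and 16 to 21 in preNeu against GMP, and 19 to 21 and 6 to 7 in matNeu against preNeu, and early membrane genes lower over 1 to 3. Values near 0 changed sign when a library was left out. In matNeu against GMP those of Wipi2 ranged from −0.11 to 0.18, of Atg4c from −0.098 to 0.51 and of Atg16l1 from −0.37 to 0.00082. In preNeu against GMP those of Becn1 ranged from −0.13 to 0.0027 and of Atg4a from −0.0017 to 0.37. In matNeu against preNeu those of Pik3r4 ranged from −0.21 to 0.072 and of Atg16l2 from −0.031 to 0.13.

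Replicate numbers in the titles were tried as pairs. Deviations of same-numbered libraries correlated at −0.039 to 0.12 and 4 of 9 libraries correlated best with their own number. Whether same-numbered libraries share animals or a day of preparation cannot be told from these values. With a replicate block 22 autophagy genes were higher and 11 lower in matNeu against GMP, 12 and 18 in preNeu against GMP, and 21 and 7 in matNeu against preNeu. The block took the call of Atg2a in preNeu against GMP (adjusted p = 0.067) and gave one to Uvrag in matNeu against preNeu (0.0414).

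Depth is unknown for all libraries, so genes at a few TPM, such as Atg14 and Atg10 in matNeu, have no stated counting error, and the peak lists have 1 library each and no replicate error.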
